A study of Mus musculus with 30 samples.

Results

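Scd1, Scd2, Elovl6, Gpam, Fasn, Acly and Srebf1, which act in the making and use of new fatty acids, were followed across the left ventricles of mice that differed in sex, diet and genotype. These are 7 of the 8251 genes that the platform annotation names by a single symbol. Every probe set assigned to them was taken, which gave 11 of the 12488 probe sets of the Affymetrix MG_U74Av2 array: 3 for Scd1, 2 each for Scd2 and Elovl6, and 1 each for Gpam, Fasn, Acly and Srebf1. The genes were chosen by the diet difference of Scd1 in an earlier look at the same arrays, where it was the largest of all genes, so diet and HCM comparisons with casein arrays are described here and not tested for the members. All mice were C57BL/6, were 2 months old and ate freely. The 8 groups were female and male HCM mice on a casein-based diet, female and male wild-type mice on the casein-based diet, female and male HCM mice on a standard soy-based diet, and female and male wild-type mice on the soy-based diet. Both soy HCM groups held 3 arrays and the other 6 groups held 4, which makes 30 arrays, and every array was hybridised with RNA pooled from 2 animals. HCM is read here as hypertrophic cardiomyopathy, in which the ventricular wall thickens, and the labels give neither the mutated gene nor the allele. Nothing in the labels says whether the pools came from separate litters or cages, so p-values measure the spread between these pools.

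New fatty acids are built in the cytosol. Acly (ATP citrate lyase) splits citrate from the mitochondria into acetyl-CoA, and Fasn (fatty acid synthase) joins such units into palmitate. Elovl6 lengthens palmitate to stearate, and the desaturases Scd1 and Scd2 place a double bond in stearate and palmitate to give oleate and palmitoleate. Gpam, the glycerol-3-phosphate acyltransferase of the mitochondrial outer membrane, attaches a fatty acid to glycerol-3-phosphate in the first step of triglyceride and phospholipid synthesis. Srebf1 encodes SREBP-1, the transcription factor that insulin and liver X receptors raise and that drives genes of this pathway, best known from liver and fat. The adult heart burns fatty acids taken from the blood and makes few itself. Soy meal differs from casein in its isoflavones as well as its protein, and the labels name no further component of either diet.

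Promoters of 3 members are shown for motifs of NF-Y and Sp1, factors known to act beside SREBP-1, and were picked to represent the regulator (Srebf1), chain building (Fasn) and acylation (Gpam). They are RefSeq windows of build GRCm38.p6, from 250 bases before to 50 bases after a transcription start, on the minus strand and written 5′ to 3′. Capitals mark CCAAT, the NF-Y motif, and GGGCGG, an Sp1 motif, on either strand. Windows were listed for 5 of the 7 members, Elovl6, Gpam, Fasn, Acly and Srebf1, with 8 windows in all. Gpam and Srebf1 had further windows that are not shown. The shown window of either gene holds CCAAT. The Gpam window chr19:55099428-55099727 and the Srebf1 window chr11:60220578-60220877 do not, and the Srebf1 window chr11:60222532-60222831 does. The Elovl6 window held neither CCAAT nor GGGCGG.
Srebf1, chr11:60210422-60210721: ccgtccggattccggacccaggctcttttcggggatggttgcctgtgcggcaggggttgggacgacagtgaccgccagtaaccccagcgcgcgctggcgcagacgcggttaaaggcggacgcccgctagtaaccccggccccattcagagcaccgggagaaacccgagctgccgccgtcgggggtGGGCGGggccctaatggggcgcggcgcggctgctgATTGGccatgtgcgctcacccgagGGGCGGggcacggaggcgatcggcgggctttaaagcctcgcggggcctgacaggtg
Fasn, chr11:120824498-120824797: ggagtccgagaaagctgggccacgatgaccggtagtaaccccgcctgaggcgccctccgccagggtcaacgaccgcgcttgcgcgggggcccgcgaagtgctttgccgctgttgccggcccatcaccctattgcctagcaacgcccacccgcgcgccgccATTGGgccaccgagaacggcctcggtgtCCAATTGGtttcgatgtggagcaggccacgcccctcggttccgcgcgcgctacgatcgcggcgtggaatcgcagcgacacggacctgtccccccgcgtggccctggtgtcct
Gpam, chr19:55127189-55127488: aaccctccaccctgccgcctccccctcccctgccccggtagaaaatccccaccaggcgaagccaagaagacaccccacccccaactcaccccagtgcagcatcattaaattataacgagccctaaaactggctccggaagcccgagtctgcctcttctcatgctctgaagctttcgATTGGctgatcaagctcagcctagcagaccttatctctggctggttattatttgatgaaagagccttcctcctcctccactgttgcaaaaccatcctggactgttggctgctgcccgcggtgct
The Fasn window held CCAAT at 3 places, a pair of which overlap on opposite strands. CCAAT was present in 5 of the 8 member windows and in 37.4% of the 32851 mouse windows of the same length. GGGCGG was in 4 of the 8 and in 35.7% of all. The sterol element TCACNCCAC, bound by SREBPs, occurred in 0 of the 8 and in 1.24% of all windows, and the E box CACGTG in 0 of the 8 and in 7.15% of all. These matches are descriptions of the letters in the windows.

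Values are log2 expression per probe set, summarised by RMA, so a difference of 1 is a doubling and levels of different probe sets are not set against each other. Median log2 expression was 6.11 to 6.23 on the 30 arrays. Control RNAs differed in part along diet and genotype. Dap, the mean of its 3 probe sets, read 7.18 to 8.07 on the 8 casein HCM arrays and 4.03 to 4.70 on the other 22. BioD minus BioC, both hybridisation controls, was 2.17 to 2.44 on casein wild-type replicates 1 and 2 of either sex (set A) and 0.50 to 0.63 on replicates 3 and 4 (set B). A difference of diet or genotype was therefore always also a difference between array sets, and the 2 cannot be told apart. Male soy wild-type replicate 2 stood apart, with a mean correlation of 0.963 with its group against at least 0.984 for all other arrays. Eif2s3y, a Y-linked gene, read at most 4.65 on the 15 female arrays and at least 4.84 on the 15 male arrays, so it did not contradict the sex labels.

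Scd1 was read by 3 probe sets that did not move together. In the platform annotation 94056_at and 94057_g_at share the same source sequence, and 94058_r_at has another. Probe set 94058_r_at was highest in casein-fed wild-type hearts and lowest in soy-fed wild-type hearts, with both HCM groups between them. In casein-fed HCM hearts it read 7.72, 7.58, 7.92 and 7.72 in females and 8.24, 8.41, 8.32 and 8.10 in males. In casein-fed wild-type hearts it read 9.13, 8.91, 8.71 and 8.62 in females and 9.22, 8.73, 8.94 and 8.82 in males. The 2 sets of values do not overlap, and the HCM females lie below the HCM males. In soy-fed HCM hearts it read 7.30, 7.66 and 7.42 in females and 7.39, 7.33 and 7.66 in males. In soy-fed wild-type hearts it read 6.79, 6.58, 6.51 and 6.71 in females and 6.74, 5.66, 6.29 and 6.31 in males. All 6 soy HCM arrays lie above all 8 soy wild-type arrays.

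**Figure D1:**
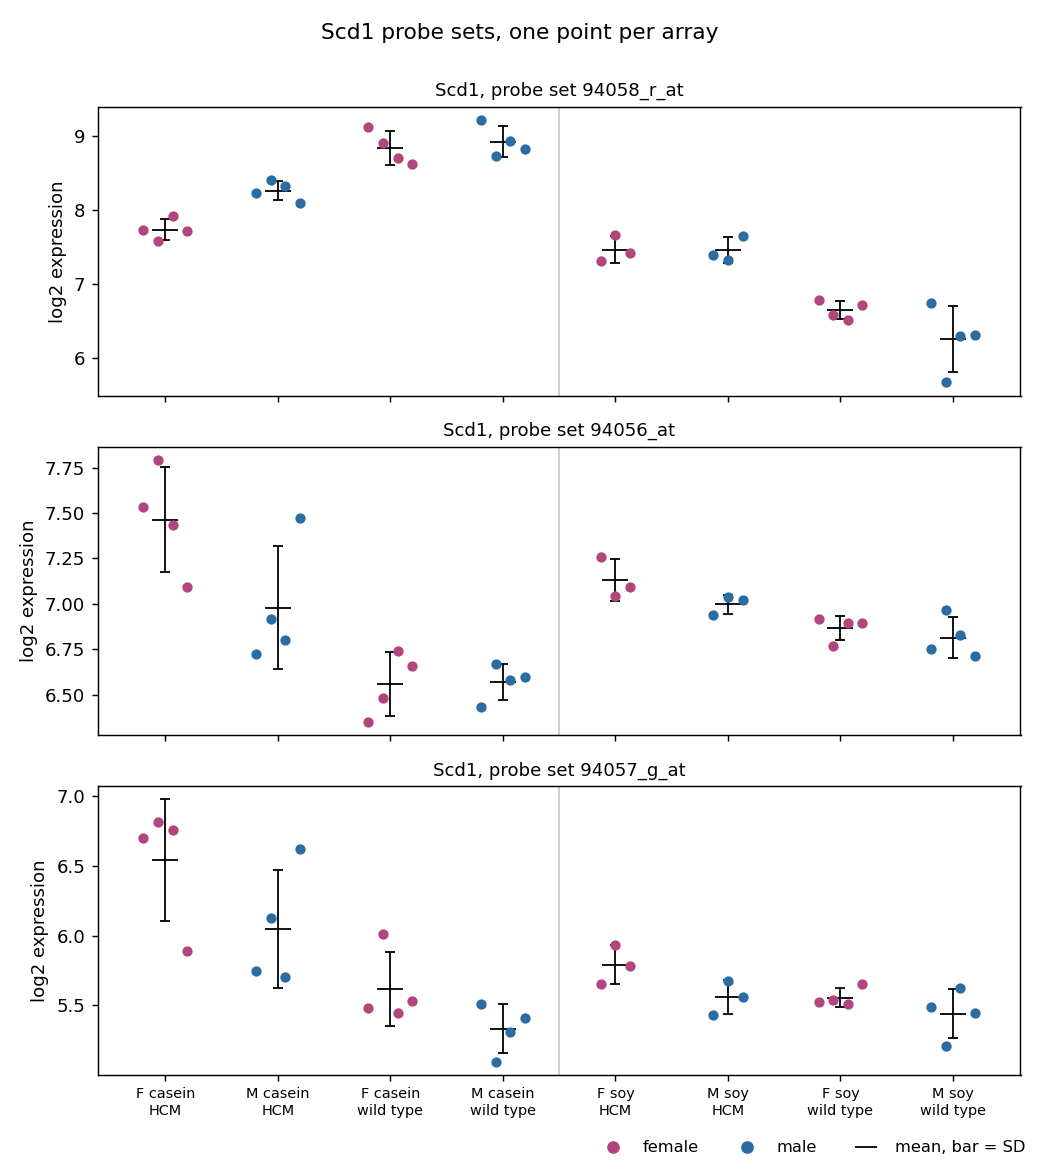
Log2 expression of the 3 Scd1 probe sets on every array (points), by group, with the group mean and SD (black); F is female and M is male. Probe set 94058_r_at is highest in casein-fed wild-type hearts (8.62 to 9.22) and lowest in soy-fed wild-type hearts (5.66 to 6.79), while 94056_at and 94057_g_at are highest on part of the casein-fed HCM arrays.

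With both sexes together, 94058_r_at averaged 8.0 ± 0.31 on casein in HCM (SD, n = 8), 8.89 ± 0.21 on casein in wild type (n = 8), 7.46 ± 0.16 on soy in HCM (n = 6) and 6.45 ± 0.37 on soy in wild type (n = 8). The diet difference, casein minus soy, was 2.44 ± 0.11 (SE) in wild type, or 5.41-fold, and 0.54 ± 0.12 in HCM. The HCM difference, HCM minus wild type, was -0.88 ± 0.11 on casein and 1.01 ± 0.12 on soy. The diet difference in HCM minus that in wild type was -1.90 ± 0.16. In the order of the 8 group means, the male and female casein wild-type groups overlapped, as did the female casein HCM group with both soy HCM groups and the female with the male soy wild-type group. The male casein HCM group (8.10 to 8.41) overlapped neither neighbour, and the soy HCM groups lay clear of the soy wild-type groups.

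The comparison of HCM with wild type on soy shares its 8 soy wild-type arrays with the diet difference by which the genes were chosen, so it is not independent of that choice. For Scd1 94058_r_at, whose low values on these arrays are part of that difference, it is therefore a description with no p: the level was 2.02-fold higher in HCM. The other 10 probe sets were tested in limma with Benjamini-Hochberg adjustment over 12422 probe sets. Scd2 162077_f_at rose by 0.31 ± 0.07, with an adjusted p of 0.00157 in limma. It was the 1 of these 10 to pass, against 24.7% of all probe sets called in this comparison, 12.3% higher and 12.3% lower. In a limma fit with array set as random block, the adjusted p of Scd2 162077_f_at was 0.111. The correlation within sets in that fit, 0.18, could be estimated only from casein wild-type sets A and B. Every other set is a single combination of diet and genotype, so this p does not measure a spread between sets of soy arrays. The remaining 9 did not pass, with adjusted p from 0.0851 for Srebf1 to 0.956 for Fasn.

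Some cell type markers differed in the same comparisons, and in bulk tissue fewer cells of a type and less RNA per cell cannot be told apart. The 8 probe sets of 6 of 7 cardiomyocyte markers, summed on the linear scale, came to 36721 to 40311 on the soy HCM arrays and 26210 to 34916 on the soy wild-type arrays, without overlap, and 6 of the 8 rose in limma (median log2 difference 0.24). On the casein wild-type arrays they came to 37951 to 43778, also above the soy wild-type arrays, and 6 of the 8 rose there (median 0.39). On the casein HCM arrays they came to 44315 to 47669, above all other arrays. Against casein wild type, 3 of the 8 rose and 1 fell in limma (median 0.13). Of the 4 endothelial probe sets 3 rose in HCM on soy in limma (median 0.40), with sums of 910 to 1189.7 on the soy HCM arrays and 590.0 to 926 on the soy wild-type arrays. On casein, 0 of the 4 rose and 2 fell in HCM in limma (median -0.24). Of all probe sets, 12.3% were called higher and 12.3% lower for HCM on soy. The shares were 20.3% and 25.6% for diet in wild type, and 25% and 24% for HCM on casein. The part of these cell types in the differences of Scd1 and Scd2 was not tested.

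The other Scd1 probe sets went another way on casein. Probe set 94056_at read 7.53, 7.79, 7.43 and 7.09 in female and 6.73, 6.92, 6.80 and 7.47 in male casein-fed HCM hearts. It read 6.35, 6.48, 6.74 and 6.66 in female and 6.43, 6.67, 6.58 and 6.60 in male casein-fed wild-type hearts. All but 1 of the casein HCM arrays, male replicate 1 (6.73), lie above every casein wild-type array. HCM minus wild type on casein was 0.66 ± 0.09, where 94058_r_at gave -0.88 ± 0.11. The diet difference was -0.28 ± 0.09 in wild type and 0.16 ± 0.10 in HCM, and the HCM value was 0.07 without male casein HCM replicate 4 and 0.10 without female casein HCM replicate 2.

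Probe set 94057_g_at read 6.70, 6.82, 6.76 and 5.89 in female and 5.75, 6.12, 5.70 and 6.62 in male casein-fed HCM hearts. Against these, it read 5.48, 6.01, 5.44 and 5.53 in female and 5.51, 5.09, 5.31 and 5.41 in male casein-fed wild-type hearts. Female replicates 1 to 3 and male replicate 4 were high and female replicate 4 and male replicates 1 and 3 were low among the casein HCM arrays, and for 94056_at these arrays were high and low as well. HCM minus wild type on casein was 0.82 ± 0.12, and casein minus soy was 0.62 ± 0.13 in HCM and -0.02 ± 0.12 in wild type. On soy, 94056_at averaged 7.06 ± 0.11 in HCM (n = 6) and 6.84 ± 0.09 in wild type (SD, n = 8), a difference of 0.22 ± 0.10 with an adjusted p of 0.0907 in limma. On soy, 94057_g_at averaged 5.67 ± 0.17 in HCM and 5.50 ± 0.14 in wild type, a difference of 0.18 ± 0.13 with an adjusted p of 0.349 in limma. Thus all 3 Scd1 probe sets averaged higher in HCM than in wild type on soy, and they had opposite signs on casein. The difference of 94056_at passed without male casein HCM replicate 4, where its SE was 0.08 in place of 0.10 (adjusted p = 0.0417 in limma).

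**Figure D2:**
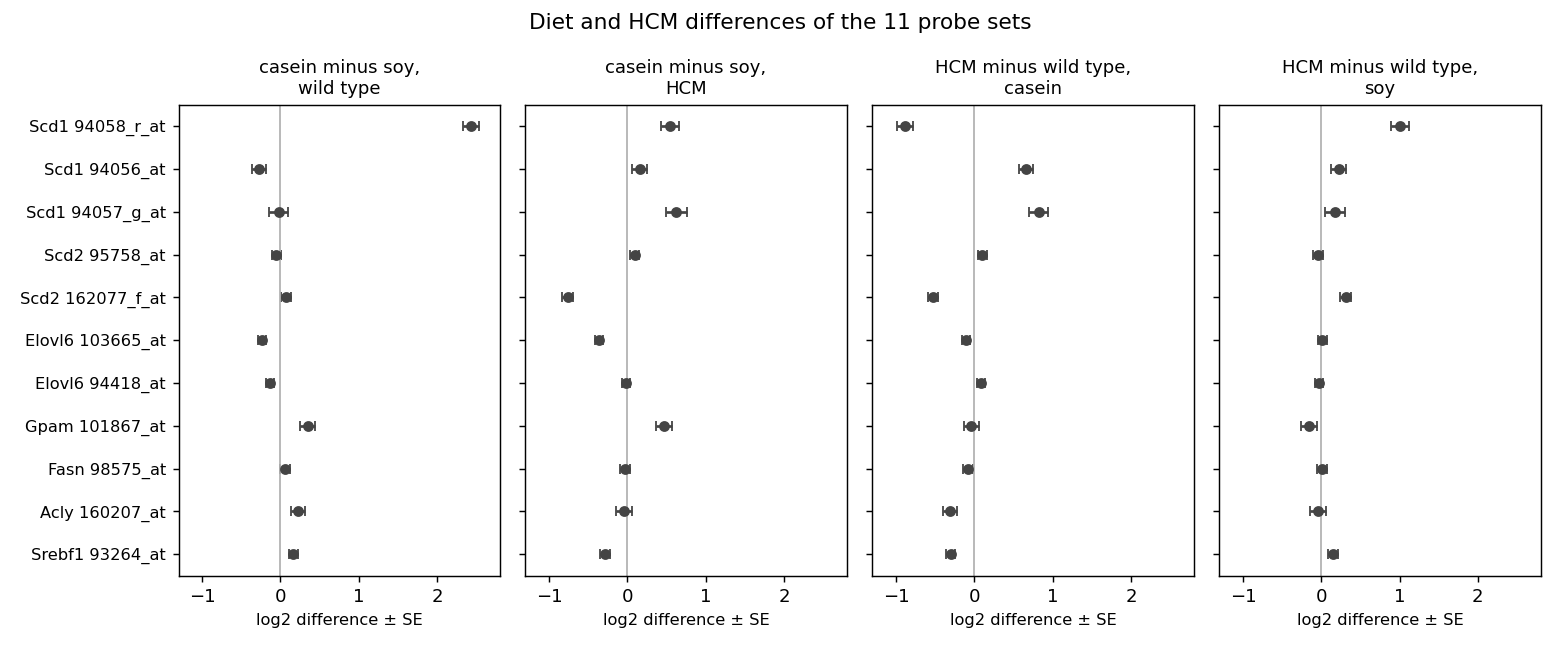
Log2 differences (points) with their standard errors (bars) for the 11 probe sets in 4 comparisons, each the first named group minus the second. Scd1 94058_r_at is at 2.44 in wild type for casein minus soy and is at -0.88 on casein but 1.01 on soy for HCM minus wild type, while most other probe sets lie within 0.5 of 0.

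The name of probe set 94058_r_at carries the suffix _r_at, which Affymetrix gave to probe sets for which some rules of probe selection had been dropped, whereas _g_at marks a set shared by a group of transcripts of a gene. In the diet difference in wild type, 65 of 12422 probe sets were above 1, and 48 of them were _r_at. That is 5.33% of the 901 _r_at probe sets against 0.148% of the 11521 others. Scd1 94058_r_at ranked 2nd of all probe sets. Of the _r_at probe sets above 1, 38 have a single gene symbol and 33 of these genes have another probe set. None of those 33 genes had another probe set above 1, and 3 had one above 0.5. The median of their highest other probe set was 0.04. In the other comparisons, the median of the _r_at probe sets against that of the others was -0.21 against 0.00 for diet in HCM, -0.13 against 0.01 for HCM on casein and 0.09 against -0.02 for HCM on soy. The part of the probe design in the values of Scd1 94058_r_at was not tested.

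**Figure D3:**
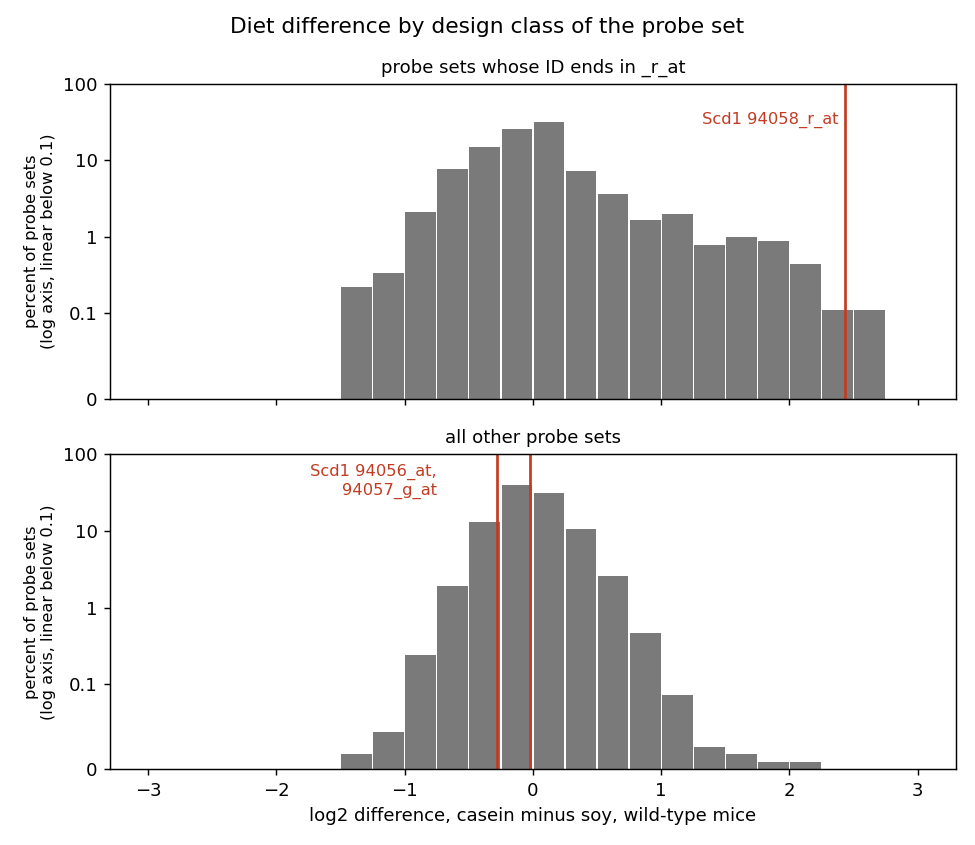
Share of probe sets (percent, log axis that is linear below 0.1) by their log2 difference, casein minus soy in wild-type mice, for the 901 _r_at probe sets (top) and the 11521 others (bottom). Red lines mark Scd1 94058_r_at at 2.44, and 94056_at and 94057_g_at at -0.28 and -0.02; 5.33% of the _r_at probe sets and 0.148% of the others lie above 1.

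Among probe sets with a single gene symbol, those whose 8 group means were most like Scd1 94058_r_at were Gnai2 99598_g_at, Gpcpd1 98941_r_at, Pigk 160105_r_at, Sh3bp2 162373_r_at and Atp6ap1 161806_r_at. Their Pearson correlations over the 8 group means were 0.988 to 0.993, and these are given as a description with no test. Across the 30 arrays, after removal of the group means, the correlation was 0.81 for Gpcpd1, 0.68 for Pigk and 0.85 for Atp6ap1, but 0.03 for Sh3bp2 and -0.08 for Gnai2. Of the 100 probe sets most like it by group means, 42 were _r_at, and of the 100 most like it by deviations 21 were, against 7.25% of all. Gpcpd1, Pigk, Sh3bp2 and Atp6ap1 had casein minus soy differences in wild type of 1.84, 1.62, 1.65 and 2.00.

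Scd2, the desaturase best known from brain, lies in the same gene cluster as Scd1, Scd3 and Scd4. Its probe set 162077_f_at (_f_at marks probes shared within a sequence family) was lowest in casein-fed HCM hearts. It read 5.92, 5.60, 5.79 and 5.34 in female and 5.56, 5.68, 5.67 and 5.73 in male casein-fed HCM hearts. It read 6.2, 6.09, 6.16 and 6.22 in female and 6.15, 6.17, 6.24 and 6.25 in male casein-fed wild-type hearts. On soy it read 6.40, 6.31 and 6.5 in female and 6.43, 6.46 and 6.41 in male HCM hearts. On soy in wild type it read 6.06, 6.09, 6.31 and 6.10 in females and 5.92, 5.99, 6.25 and 6.14 in males. The casein HCM arrays lie below all 22 others, and the soy HCM arrays lie above all others, but both gaps are narrow. At the lower edge, female casein HCM replicate 1 and male soy wild-type replicate 1 both stand at 5.92 when rounded. At the upper edge, female soy HCM replicate 2 and female soy wild-type replicate 3 both stand at 6.31 when rounded.

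HCM minus wild type for 162077_f_at was -0.53 ± 0.06 on casein and 0.31 ± 0.07 on soy. Between the diets it differed by 0.08 ± 0.06 in wild type and -0.76 ± 0.07 in HCM. The other Scd2 probe set, 95758_at, spanned 6.22 to 6.63 over all 30 arrays. Its differences were -0.05 ± 0.05 for diet in wild type, 0.09 ± 0.06 for diet in HCM, 0.10 ± 0.05 for HCM on casein and -0.04 ± 0.06 for HCM on soy. For 95758_at, set A gave -0.12 for diet in wild type and 0.17 for HCM on casein, and set B gave 0.02 and 0.04. The 2 probe sets differed in sign in all 4 pooled differences. The group means most like those of 95758_at were those of Kcnj5, Gip and Gm12219 (r of 0.937 to 0.950 over 8 group means), while their deviations within groups correlated at -0.32 to 0.00.

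Elovl6, the elongase of palmitate, was lower on casein than on soy by its probe set 103665_at. Both of its probe sets were among the dimmest 40% on the array. On casein it read 4.43, 4.39, 4.53 and 4.44 in female and 4.32, 4.38, 4.20 and 4.42 in male HCM hearts. On soy it read 4.98, 4.80 and 4.72 in female and 4.64, 4.73 and 4.64 in male HCM hearts. The 8 casein HCM arrays lie below the 6 soy HCM arrays. In wild type it averaged 4.50 ± 0.11 on casein and 4.74 ± 0.10 on soy (SD, n = 8 each), with overlap. The diet difference was -0.36 ± 0.06 in HCM and -0.24 ± 0.05 in wild type. The HCM difference was -0.11 ± 0.05 on casein and 0.02 ± 0.06 on soy (adjusted p = 0.867 in limma), and the casein value was -0.18 against set A and -0.04 against set B. The diet difference in wild type was -0.17 for set A and -0.30 for set B. Probe set 94418_at spanned 4.31 to 4.83 on all arrays and differed between the diets by -0.01 ± 0.05 in HCM and -0.13 ± 0.05 in wild type.

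**Figure D4:**
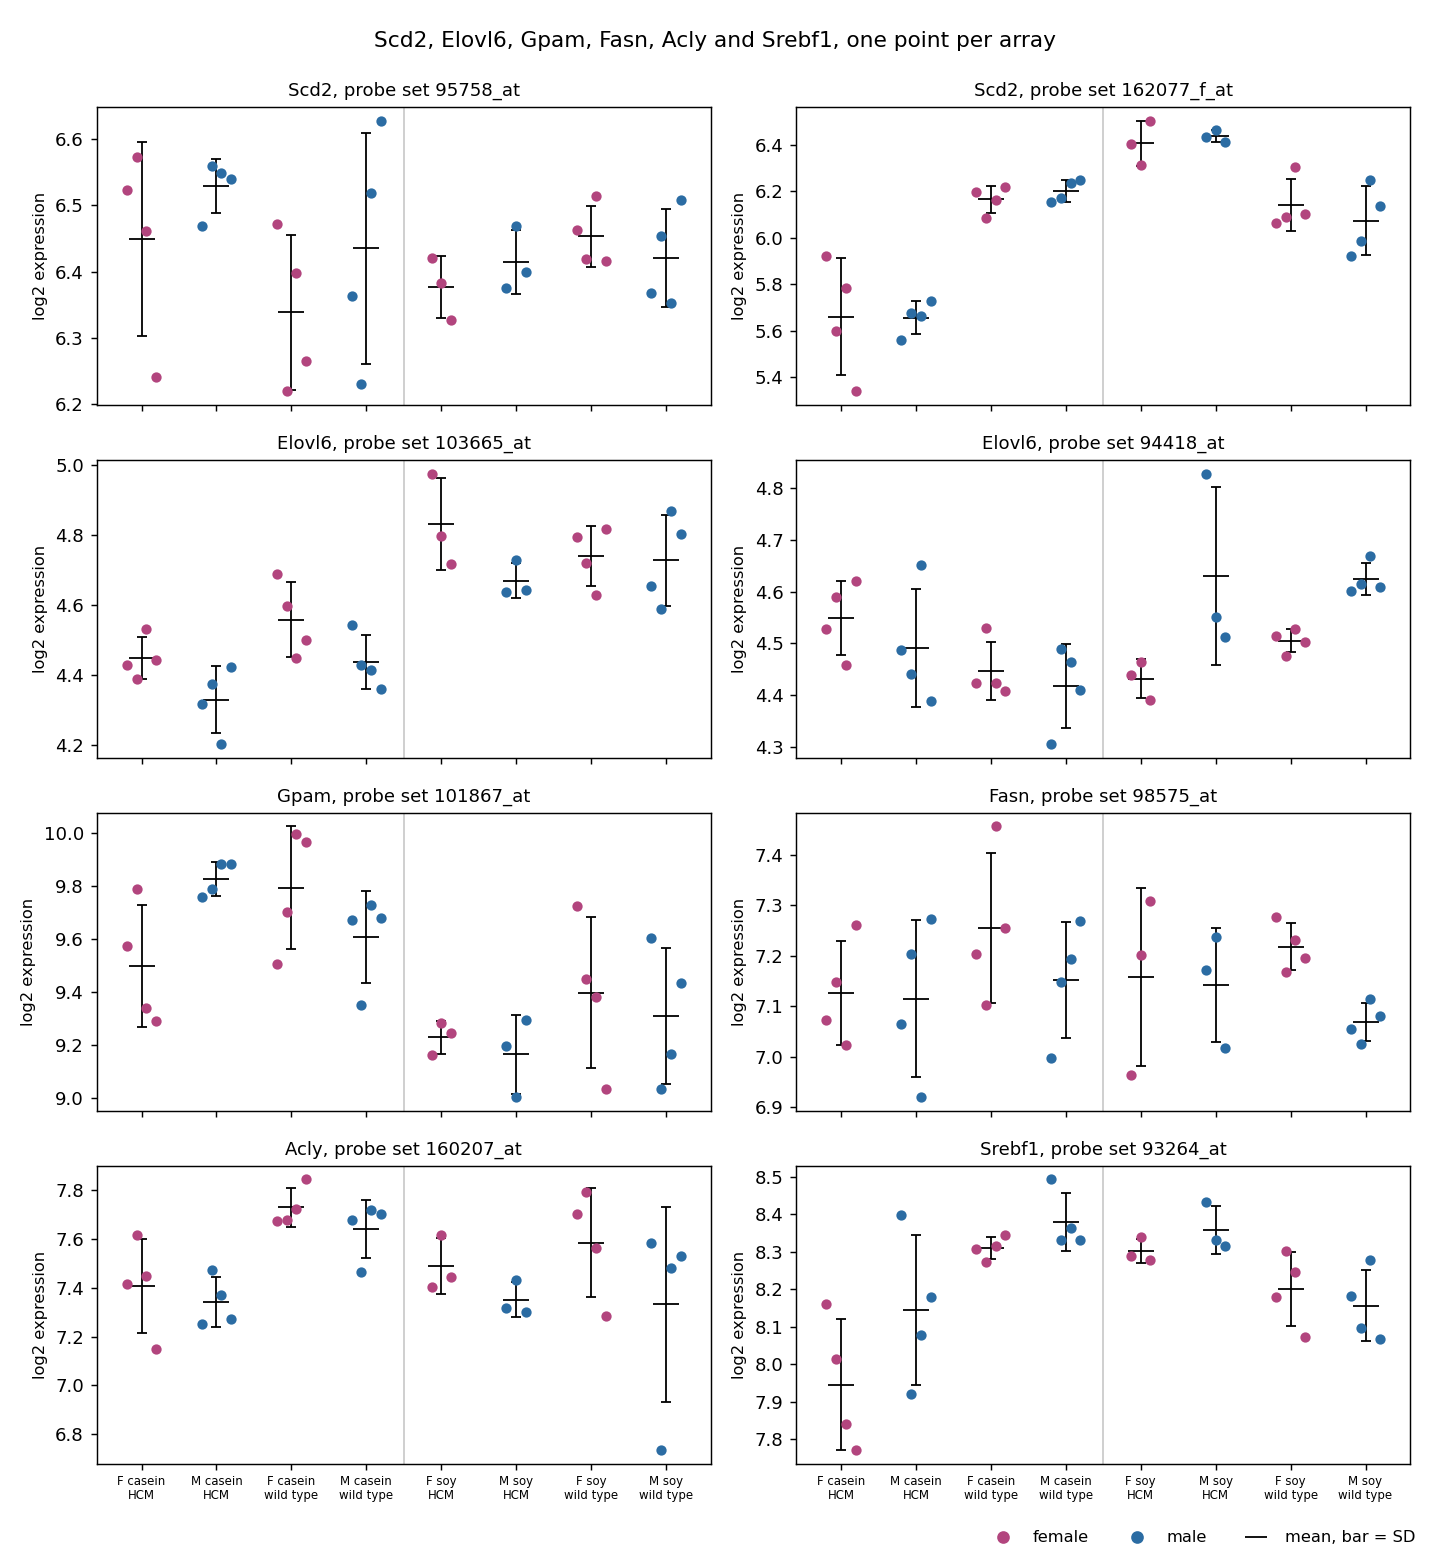
Log2 expression of the 8 probe sets of Scd2, Elovl6, Gpam, Fasn, Acly and Srebf1 on every array (points), by group, with the group mean and SD (black); F is female and M is male, and each panel has its own scale. Scd2 162077_f_at is lowest on the casein-fed HCM arrays (5.34 to 5.92), Elovl6 103665_at is lower on casein than on soy, and Gpam is higher on casein than on soy in both genotypes.

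Gpam, the acyltransferase, was higher on casein than on soy in both genotypes. It read 9.57, 9.79, 9.34 and 9.29 in female and 9.76, 9.79, 9.88 and 9.88 in male casein-fed HCM hearts. It read 9.16, 9.28 and 9.24 in female and 9.20, 9.0 and 9.29 in male soy-fed HCM hearts. All male casein HCM arrays lie above all male soy HCM arrays, while in females the lowest casein and the highest soy value both stand near 9.29. In wild type it averaged 9.70 ± 0.21 on casein and 9.35 ± 0.26 on soy (SD, n = 8 each), with overlap. Casein minus soy was 0.47 ± 0.10 in HCM and 0.35 ± 0.10 in wild type, or 1.38-fold and 1.27-fold, and 0.26 and 0.18 with quantile normalization added to the deposited values. Against the same soy arrays, casein wild-type set A gave 0.21 and set B gave 0.49. HCM minus wild type was -0.04 ± 0.10 on casein and -0.16 ± 0.10 on soy (adjusted p = 0.278 in limma), and the soy value was -0.10 without female soy wild-type replicate 1. The casein value joined opposite signs, -0.29 ± 0.14 in females and 0.22 ± 0.14 in males, and it was 0.10 against set A and -0.18 against set B.

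Fasn, the synthase, was nearly level. Its 8 casein HCM arrays spanned 6.92 to 7.27 with a mean of 7.12, and its 8 casein wild-type arrays 7.0 to 7.46 with a mean of 7.20. Its 6 soy HCM arrays spanned 6.96 to 7.31 with a mean of 7.15, and its 8 soy wild-type arrays 7.02 to 7.28 with a mean of 7.14. All 4 ranges overlap. Casein minus soy was -0.03 ± 0.07 in HCM and 0.06 ± 0.06 in wild type, the wild-type value being -0.03 for set A and 0.15 for set B. HCM minus wild type was -0.08 ± 0.06 on casein and 0.01 ± 0.07 on soy, where the 95% interval ran from -0.13 to 0.14. The casein value was 0.01 against set A and -0.17 against set B.

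Acly, the lyase that supplies acetyl-CoA, was lower in HCM than in wild type on casein. It read 7.42, 7.62, 7.45 and 7.15 in female and 7.25, 7.47, 7.37 and 7.27 in male casein-fed HCM hearts. It read 7.67, 7.67, 7.72 and 7.84 in female and 7.68, 7.46, 7.72 and 7.70 in male casein-fed wild-type hearts. The ranges touch only through the lowest wild-type array, male replicate 2. The HCM difference was -0.31 ± 0.09 on casein and -0.04 ± 0.10 on soy (adjusted p = 0.807 in limma). Casein minus soy was -0.04 ± 0.10 in HCM and 0.23 ± 0.09 in wild type, and the wild-type value was 0.13 without male soy wild-type replicate 2, whose Acly value of 6.74 was the lowest of the 30.

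Srebf1, the regulator, was lowest in casein-fed HCM hearts. It read 8.16, 8.01, 7.84 and 7.77 in female and 8.40, 7.92, 8.08 and 8.18 in male casein-fed HCM hearts. It read 8.31, 8.27, 8.32 and 8.35 in female and 8.49, 8.33, 8.36 and 8.33 in male casein-fed wild-type hearts. All casein HCM arrays except male replicate 1 lie below the casein wild-type arrays. On soy it averaged 8.33 ± 0.05 in HCM (n = 6) and 8.18 ± 0.09 in wild type (SD, n = 8). HCM minus wild type was -0.30 ± 0.06 on casein and 0.15 ± 0.06 on soy (adjusted p = 0.0851 in limma). Casein minus soy was -0.29 ± 0.06 in HCM and 0.17 ± 0.06 in wild type, where it was 0.10 with quantile normalization added.

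Over the 11 probe sets the 3 comparisons that use casein arrays had no shared direction. For diet in wild type, 6 differences were above 0 and 5 below, with a median of 0.06 against -0.03 over all probe sets. For diet in HCM, 5 were above 0 and 6 below, with a median of -0.01, as over all probe sets. For HCM on casein, 4 were above 0 and 7 below, with a median of -0.08 against 0.00 over all. The members were chosen with these arrays in view, and the counts are given as a description. The comparisons share arrays: each diet comparison shares one set of arrays with each HCM comparison. Across the 8 group means, Srebf1 correlated with Fasn at 0.38, with Acly at 0.45, with Gpam at -0.14 and with Scd2 162077_f_at at 0.84. After removal of the group means, over 30 arrays, the highest correlation between members was that of Gpam with Acly, 0.67, and that of Scd1 94056_at with 94057_g_at was 0.54. These arrays share the normalisation, so the correlations are descriptions.

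None of the 11 probe sets passed for sex, which was the mean of female minus male over the 4 combinations of diet and genotype, against 0.233% of all probe sets, or 29, in limma. Unadjusted, 1127 of all 12422 probe sets were under 0.05 for sex in limma, and so were 3 members: Scd1 94057_g_at, Elovl6 103665_at and Scd1 94056_at. Their differences were 0.28 ± 0.09, 0.10 ± 0.04 and 0.16 ± 0.07, with adjusted p of 0.305, 0.433 and 0.489 in limma. For the difference of the diet effect between the sexes, 0 of the 11 and 0% of all passed, and the members with the smallest p were Scd1 94058_r_at (-0.51 ± 0.16, adjusted p = 0.216 in limma) and Elovl6 94418_at (0.20 ± 0.07, adjusted p = 0.24). Unadjusted, 1755 of all probe sets were under 0.05. For the difference of the HCM effect between the sexes, 0 of 11 and 0% of all passed in limma, with 503 of all under 0.05 unadjusted. Scd1 94058_r_at had -0.42 ± 0.16 there and Scd1 94056_at 0.29 ± 0.13, both with an adjusted p of 0.933 in limma. In casein-fed HCM hearts the 4 female arrays of 94058_r_at (7.58 to 7.92) lay below its 4 male arrays (8.10 to 8.41), and in soy-fed HCM hearts both sexes averaged 7.46. The other Scd1 probe sets averaged higher in casein-fed HCM females than males, with overlap, by 0.48 ± 0.13 for 94056_at and 0.49 ± 0.17 for 94057_g_at.

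Other genes of lipid synthesis were taken from 3 lists written from pathway knowledge, without the members. Of 42 genes of fatty acid synthesis and modification 23 were measured by 28 probe sets, of 39 regulators 30 by 35, and of 41 genes of glycerolipid synthesis and storage 29 by 40. On soy, HCM against wild type, 7 of the 103 probe sets rose and 10 fell in limma, or 16.5%, below the 24.7% of all probe sets. Ppargc1a (a coactivator of mitochondrial genes) rose by 0.65 ± 0.12, Sp1 by 0.49 ± 0.18, 1 probe set of Lpl (lipoprotein lipase) by 0.36 ± 0.07 and Plin2 (a lipid droplet coat protein) by 0.27 ± 0.06. Gpd2 fell by 0.41 ± 0.10, Tkt (transketolase) by 0.35 ± 0.06, Nr1h3 (liver X receptor alpha, an activator of Srebf1) by 0.33 ± 0.06 and Cidec by 0.31 ± 0.06. The adjusted p of these 8 was at most 0.0484 in limma. With array set as random block, 2 of the 103 passed, Ppargc1a (adjusted p = 0.0241 in limma) and Tkt (0.0482), against 2.76% of all probe sets.

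For diet in wild type, 27 of the 103 were higher on casein and 20 lower, or 45.6%, against 46% of all, 20.3% higher and 25.6% lower. With each array centred on its median, the split of all called probe sets was 3609 higher and 2111 lower, in place of 2522 and 3186. With array set as random block, 25 of the 103 passed for diet in wild type, 47 for diet in HCM and 28 for HCM on casein, against 25.1%, 41.2% and 27.3% of all probe sets in limma. The fatty acid list had 6 higher and 7 lower of 28, the regulators 8 and 8 of 35, and the glycerolipid list 13 and 5 of 40. Plin4 (0.65 ± 0.08), Fabp3 (the heart fatty acid-binding protein, 0.64 ± 0.06), Pnpla2 (the triglyceride lipase ATGL, 0.52 ± 0.05), Akt1 (0.51 ± 0.09) and Mlycd (malonyl-CoA decarboxylase, 0.44 ± 0.06) rose. Agpat1, the acyltransferase that acts after Gpam, fell by 0.55 ± 0.11, and Cyb5a, which passes electrons to the desaturases, fell by 0.48 ± 0.12. For diet in HCM, 33 were higher and 31 lower, or 62.1%, against 61.1% of all, 29.8% higher and 31.3% lower. Mid1ip1 and Thrsp are regulators of fatty acid synthesis. Of 2 probe sets of Mid1ip1, 1 rose by 0.98 ± 0.12 and the other had 0.25 ± 0.20 (adjusted p = 0.281 in limma). Thrsp rose by 0.64 ± 0.10 and Fabp3 by 0.64 ± 0.07. Ppara fell by 1.78 ± 0.23, and 1 probe set of Lpl fell by 1.36 ± 0.16. The adjusted p of the genes named for diet was at most 0.0018 in limma.

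For HCM on casein, 20 were higher and 28 lower, or 46.6%, against 49% of all, 25% higher and 24% lower. The same probe set of Mid1ip1 rose by 0.75 ± 0.11, where the other had 0.04 ± 0.18, and Tkt rose by 0.58 ± 0.06. Ppara fell by 1.34 ± 0.21, 1 of 2 probe sets of Gpd1 (cytosolic glycerol-3-phosphate dehydrogenase) by 0.69 ± 0.06, Lpin1 (a phosphatidate phosphatase) by 0.63 ± 0.08 and Mlycd by 0.53 ± 0.06, with adjusted p of at most 9.23e-06 in limma for these 6. For sex and the differences of diet and HCM effects between the sexes, 0 of the 103 passed in limma. The median log2 difference of the 103 was between -0.04 and 0.03 in all 7 comparisons.

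Markers of fat and nerve cells were summed in the same way. Adipocytes express the members strongly. The 8 probe sets of 7 of 9 adipocyte markers summed to 1042 to 1126 on the casein HCM arrays, 945 to 1242 on the casein wild-type arrays, 1084 to 1153 on the soy HCM arrays and 1065 to 1300.2 on the soy wild-type arrays, so all groups overlapped. The 2 probe sets of Lep, at 8.57 and 8.58 on average, were the brightest and weigh most in these sums. In limma, 0 of the 8 rose and 3 fell in HCM on soy, against 12.3% of all probe sets higher and 12.3% lower. In HCM on casein, 2 rose and 0 fell, against 25% and 24% of all. Adipoq, a defining marker of adipocytes, averaged 4.26 on the log2 scale, and Plin1 was not analysed here. The 3 probe sets of the brown adipocyte markers Ucp1 and Cidea summed to 292 to 328 on the casein HCM arrays and 146 to 255 on the other arrays, without overlap. Cidea is 1 of them, and also stands in the glycerolipid list, where it rose on casein in HCM by 0.85 ± 0.10. Cidea was the brightest of the 3 and so weighs most in these sums. Its group means were 7.88 and 7.96 in casein HCM against 6.88 to 7.46 in the other groups. For Ucp1, 1 probe set was level, at 4.16 and 4.20 in casein HCM against 4.15 to 4.32. The other Ucp1 probe set stood at 5.56 and 5.57 in casein HCM against 5.14 to 5.41. The 6 probe sets of 4 of 7 Schwann and nerve markers summed to 328 to 365 on the casein HCM arrays and 278 to 321 elsewhere. A single probe set had its highest group means in casein HCM at 7.51 and 7.56 against 6.96 to 7.11 in the other groups, and another was lowest in casein HCM, at 5.72 and 5.83 against 5.87 to 6.19. Their part in the casein HCM values of Scd1, Scd2, Acly and Srebf1 was not tested. Among cardiomyocyte markers, Tnnt2 averaged 12.3 and 1 probe set of Mb averaged 13.1 on the log2 scale.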

How the data were processed

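Expression was measured on 30 arrays of pooled left ventricular RNA. Per the submitters' processing notes, the deposited log2 values per probe set come from RMA and Affymetrix Expression Console, whose versions the sources used here do not state. No scanner files were used here, so no detection calls or other background corrections were made, and the number of arrays limits the precision. Of 12422 probe sets that are not controls, 10833 have 1 gene symbol in the platform annotation, 396 several and 1193 none.

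The 30 arrays entered a single limma fit with 8 group means (limma 3.58.1 in R 4.3.3; 22 residual and 5.86 prior degrees of freedom; two-sided; Benjamini-Hochberg threshold 0.05). Errors of differences are standard errors, and positive values mean higher in HCM, on casein or in females. The fit was tested on simulated data. The members and gene lists were chosen with earlier results of these data known, so diet and HCM on casein carry no p for members, nor does HCM on soy for Scd1 94058_r_at. Pathway genes named are among the up to 4 per list and comparison with the largest difference past the threshold, and not all of these are named. The 5 and 3 genes most like Scd1 and Scd2 are those of highest correlation over group means. Alternatives, in part chosen after seeing the data, are given at the end.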

Additional observations from a re-analysis of the deposited data

Results flagged for a closer look

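Each of the 11 probe sets was checked in every group of 4 arrays, which gave 66 cases. In 8 of them 1 array stood far from the other 3 by Dixon's criterion. Chance gives this in about 1 of 20 independent cases. The 66 share arrays and genes, so the count cannot be set against that rate. For Scd1, 94056_at read 6.77 in female soy wild-type replicate 2, below the others at 6.89 to 6.92. Scd1 94057_g_at read 5.89 in female casein HCM replicate 4, below the others at 6.70 to 6.82, and 6.01 in female casein wild-type replicate 2, above the others at 5.44 to 5.53. Scd2 162077_f_at read 6.31 in female soy wild-type replicate 3, above the others at 6.06 to 6.10. Elovl6 94418_at read 4.53 in female casein wild-type replicate 2, above the others at 4.41 to 4.42. In male casein wild-type replicate 2, Gpam read 9.35 and Acly 7.46, both below the other arrays of that group (9.67 to 9.73 and 7.68 to 7.72). Acly read 6.74 in male soy wild-type replicate 2, below the others at 7.48 to 7.58, and this array also stood apart over all probe sets.

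For 2 probe sets of the members all HCM arrays lay on opposite sides of the wild-type arrays on the 2 diets. The share of all probe sets with this pattern was not counted, so whether it is unusual cannot be said. In limma, 49% of all probe sets were called for HCM on casein and 24.7% for HCM on soy. The HCM difference on casein minus that on soy was -1.90 for Scd1 94058_r_at and -0.84 for Scd2 162077_f_at. These differences were not tested, since the members were chosen with the casein arrays in view.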

How the results depend on the processing

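Alternatives were added quantile normalization, centring on array medians, leaving out the dimmest 40% of probe sets, 1 probe set per gene, weighting arrays, a replicate block, fitting only the groups compared and leaving out each array. Chosen after seeing the data were the array set as a random or fixed term, either casein wild-type set alone, leaving out the casein HCM arrays and leaving out _r_at probe sets.

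In limma, 5708 probe sets passed for diet in wild type, 7590 for diet in HCM, 3064 for HCM on soy, 6088 for HCM on casein, 29 for sex and 0 for each difference between the sexes. Leaving out single arrays gave 5279 to 6322, 7145 to 8163, 2133 to 3419, 5710 to 6755 and 20 to 40 in that order, 0 to 16 for the diet effect between the sexes (16 without male soy wild-type replicate 1) and 0 to 3 for the HCM effect between the sexes (3 without female casein HCM replicate 2). Diet in HCM gave 4936 without the dimmest 40%, where 7453 probe sets were tested. Array weights gave 5210 for HCM on soy, 93 for sex and 137 for the diet effect between the sexes. The set as a random block gave 3122 for diet in wild type, 343 for HCM on soy, 3395 for HCM on casein and 1 for the diet effect between the sexes, and as a fixed term 1 for the last. Set A alone gave 19 for sex and 1 for the diet effect between the sexes; set B alone gave 10 for that comparison and 2 for the HCM effect between the sexes. The causes were not tested. Centring turned the split for diet in wild type to 3609 higher and 2111 lower.

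Same-numbered arrays deviated together (r above 0.1) in 21 of 99 pairs, and a sample correlated best with its own number in 47 of 198 cases. The replicate block gave 5644, 7417, 2703, 6031, 27, 0 and 0, and changed no call of a member.

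Over all alternatives that were run, each member difference of 0.15 or more kept its direction. For HCM on soy, Scd1 94056_at passed with array weights (adjusted p = 0.0089), with only the soy groups (0.0128), without the casein HCM arrays (0.0191) and without male casein HCM replicate 4 (0.0417). Gpam passed with array weights (0.019) and Srebf1 without the casein HCM arrays (0.0368), and Scd2 162077_f_at did not pass with the set as a random block (0.111), all in limma.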
